A study of Mus musculus with 4 samples.

Results

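The comparison described here is that of AB1-HA cells cultured for 24 h with interferon gamma (IFN-γ) and AB1-HA cells cultured for 24 h with vehicle. It rests on 2 of the 4 arrays of the series, 1 for each condition, chosen by their labels. Of 39429 gene probes on the array, 23416 were well above background on at least 1 of these arrays and were kept: 22195 on both, 752 on the IFN-γ array and not on the vehicle array, and 469 the other way round. AB1-HA is a mesothelioma line, a tumor of the lining of the chest or abdominal cavity, from BALB/c mice, and it carries influenza hemagglutinin as a model tumor antigen. The other arrays held LLC, a Lewis lung carcinoma line labelled C57BL6, with vehicle or IFN-γ for the same time. The series set out, by its title, to find what restrains IFN-γ-inducible genes in tumor cells. Each condition has 1 array, so a difference has no replicate check, the number of arrays limits the precision, and no test or p-value is given. The sources used here give neither the dose nor whether several dishes were pooled.

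IFN-γ is the cytokine that activated T cells and natural killer cells release. Its receptor activates the kinases JAK1 and JAK2, which phosphorylate STAT transcription factors, and STAT dimers bind gamma-activated sites in the promoters of a first set of genes. Among these are IRF transcription factors, which act through a different DNA element, the interferon-stimulated response element, and widen the program to antigen presentation, cell-autonomous defence against pathogens, chemokines, cell death genes and the feedback inhibitors that end it.

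Levels are given as scaled signals, with the 75th percentile of the gene probes of each array set to 1000, and differences as log2 of the IFN-γ signal over the vehicle signal. The 13208 named genes that had a value included 394 (2.98%) whose IFN-γ signal was 2-fold or more above the vehicle signal and 154 (1.17%) for which it was 2-fold or more below. The 2-fold limit is a size and not a test. The SD of this difference over repeat spots of a probe had a median of 0.062 across 241 probes, which covers spot noise alone. The higher genes reached far beyond 2-fold, with 131 at least 8-fold and 23 at least 64-fold higher, whereas 10 genes were at least 4-fold lower and 0 were 8-fold lower. A gene that was dim on 1 array has a bound, written "at least", and the list counts and medians take bounds at their size. Fewer cells expressing a gene, or less of its RNA per cell, cannot be told apart in such bulk RNA.

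**Figure D1:**
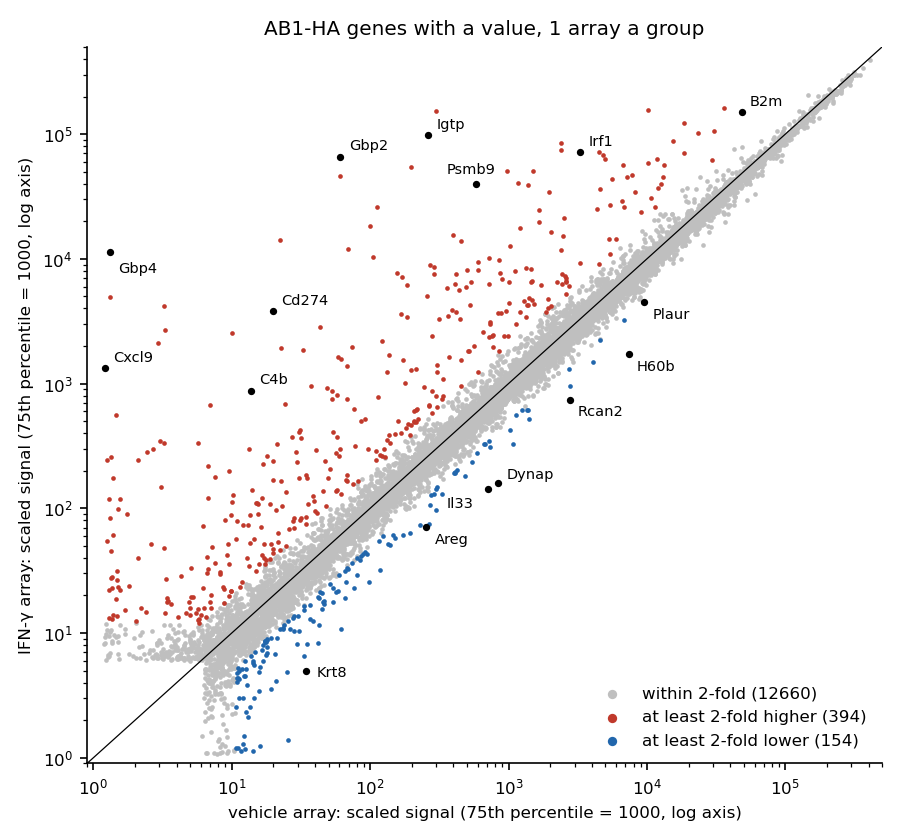
Scaled signal of each AB1-HA gene with a value on the vehicle array (horizontal, log axis) and on the IFN-γ array (vertical, log axis), with 1 point per gene and the diagonal marking equal signals. The 394 genes at least 2-fold higher (red) spread far above the diagonal, up to Gbp2 and Gbp4, while the 154 lower genes (blue) stay close to it and most are dim. Points of genes given as a bound stand at their measured signals.

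The labels' tissue was checked against marker genes. Mesothelin, the surface antigen of mesothelial cells encoded by Msln, was bright, with 36442 on the vehicle array and 27361 on the IFN-γ array, and Pdpn, Efemp1 and Krt19 were also measured. Of 15 genes with a probe in the mesothelial list, 8 were well above background on at least 1 array. Of these, Nkx6-1 (18.2 with vehicle), Krt8 (34.4, not above background with IFN-γ) and Tmem151a (66.4) were dim. Wt1, Upk3b, Calb2, Lrrn4, Gpm6a, Bnc1 and Upk1b were not well above background on either array. The cells thus carried part of the mesothelial set, together with 18 of 21 fibroblast and mesenchymal markers. Ptprc and Cd3d, which define leukocytes, the endothelial genes Cdh5, Tek and Vwf, and the epithelial genes Epcam and Cdh1 were not well above background on either array. Other markers of the same lists were: 6 of 18 leukocyte markers, among them Itgam (2349 with vehicle and 2606 with IFN-γ) and Cd4 (1720 and 1908), 4 of 9 endothelial ones, led by Kdr (2019 and 1989), and 6 of 14 lung epithelial ones, led by Lamp3 (24830 and 20080). The summed scaled signal of the leukocyte markers was 5213 with vehicle and 5551 with IFN-γ, and that of the endothelial markers 2163 and 2145. For the 15 mesothelial markers it was 62350 and 51050, and for the 14 lung epithelial ones 30310 and 24910.

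At the top of the pathway, the receptor and kinase genes differed by little. Ifngr1, the ligand-binding chain of the IFN-γ receptor, had a scaled signal of 2828 on the vehicle array and 2785 on the IFN-γ array, a difference of −0.02. Ifngr2, the signalling chain, went from 1136 to 1015 (−0.16) and Jak1 from 10437 to 10282 (−0.02). These values lie within 3 times the repeat-spot SD. Jak2 was higher by 0.51 (2956 to 4222), short of 2-fold. The genes of the next step were higher: Stat2 had 727 on the vehicle array and 10231 on the IFN-γ array (3.82), and Irf9, its partner in the complex that binds interferon-stimulated response elements, went from 1442 to 8322 (2.53). Stat3 was also higher (2.16), while Stat5a (0.53), Stat5b (0.08) and Stat6 (0.04) were within 2-fold. In all, 4 of the 15 receptor, JAK and STAT genes were at least 2-fold higher, with a list median of 0.51 (0.08 over the genes above background on both arrays) beside −0.08 over all genes, and 1 of the 4 is not named here.

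Batf2, a basic leucine zipper protein that partners with IRF1, had the largest difference among the listed transcription factors. Its scaled signal was 99.8 on the vehicle array and 18483 on the IFN-γ array, which is 185-fold higher (log2 7.53, and 6.58 under normexp, a background correction that lifts dim signals off 0). Irf1, the factor that drives MHC class I and many secondary interferon targets, was already expressed with vehicle and went from 3291 to 71667 (4.44, with 3.23 by another probe). Nlrc5, the transactivator of MHC class I genes, went from 157 to 7759.8 (5.63, with 3.30 by another probe and 5.02 under normexp). Irf7 (2.70) was higher, and Irf5 was so by a bound (2.73), but the Irf5 value was 0.31 under normexp. Rfx5, a subunit of the factor that binds MHC promoters, was higher by 1 probe (1.89, and 0.05 under normexp) and not by another (0.25). Irf3, a factor activated downstream of nucleic acid sensors, was at −0.22 and Irf2 at 0.87. Irf4 and Irf8, which belong to lymphoid and myeloid cells, were not well above background on either array. Over the list, 7 of 14 genes with a value were higher and 0 lower, with a median of 1.38 (0.87 over the genes above background on both arrays, and 0.24 at the lowest over the alternatives).

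The feedback arm was narrow. Socs1, which blocks JAK catalytic activity, had a scaled signal of 1329.5 on the vehicle array and 8454 on the IFN-γ array (2.67). Usp18, an ISG15 protease that also occludes a type I interferon receptor chain, went from 360.3 to 5845 (4.02). The remaining 18 of 20 inhibitors were within 2-fold, including Socs3 (0.51), the phosphatases Ptpn2 (0.11), Ptpn1 (−0.15), Ptpn6 (0.24) and Ptpn11 (−0.24) and the PIAS proteins Pias1 (0.07) and Pias4 (−0.24). The list median was −0.20. Chromatin and RNA regulators tied to silencing of interferon genes were similarly flat. Of 36, 2 (5.56%) were higher, beside 2.98% of all genes, and 0 lower, with a median of −0.11. The 2 were Adar, an RNA editor that marks self RNA (2.16, with 0.81 by another probe), and Prdm1, a transcriptional repressor (1.16). Ezh2 (−0.14), Setdb1 (−0.07), Kdm1a (−0.07), Dnmt1 (0.01) and Trim28 (−0.27), which act in gene repression, all lay within 2-fold.

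The interferon-inducible GTPases held the largest differences. These proteins coat and disrupt the vacuoles in which bacteria and parasites live. Among 20 measured members, 19 passed 2-fold toward higher signal, with a median of 7.66 (5.08 at the lowest over the alternatives). Gbp2, a guanylate-binding protein, had a scaled signal of 61.0 on the vehicle array and 65970.2 on the IFN-γ array, or 1082-fold (log2 10.08, and 8.92 under normexp). Igtp, also known as Irgm3, went from 264 to 98527, and Irgm1, which regulates the family and protects host membranes, from 1166 to 40631 (5.12). The measured vehicle signal of Irgm1 and Ifi47 (2377 to 74588) was above the 75th percentile of the array, while Gbp4 and Gbp7 were not above background with vehicle. Rnd1, a member of the same list that is outside these families, was at −0.14. The Gbp, Irgm and Tgtp genes have near-identical copies, and the share of each in a signal is uncertain.

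Neighbouring genes were called together. In the gene order of the RefSeq table, taken over genes with a value, 152 of the 394 higher genes (38.6%) lay directly beside another higher gene, compared with 566 of 12813 genes that were not higher (4.42%). Among lower genes the share was 17 of 154 (11.04%), against 2.21% of the rest. The runs of higher genes included 7 Oas genes, 5 genes from Gbp5 to Gbp2, another 5 from Gbp8 to Gbp6, 5 Trim genes from Trim6 to Trim30d, 4 Phf11 genes, and 4 complement protease genes, C1ra, C1s1, C1rb and C1s2. A run of 6 held MHC class II and class I processing genes side by side: H2-DMa, H2-DMb1, Psmb9, Tap1, Psmb8 and Tap2. Cd274 stood in a run of 3 with Plgrkt, a plasminogen receptor gene just at the 2-fold limit (1.001), and Insl6, an insulin-like peptide gene. The scaled signal of Insl6 was 397 on the vehicle array and 15595 on the IFN-γ array. Many runs are families of similar sequence, for which cross-hybridisation was not tested. A run of 3 lower genes, Gsta1, Gm10639 and Gsta2, was made of glutathione transferase genes, and Gsta1 and Gsta2 were within 2-fold under normexp.

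Upstream sequences were read from the RefSeq promoter table (GRCm38.p6) over 250 bases before each gene's start and searched on both strands for the gamma-activated site, TTCNNNGAA, and the interferon-stimulated response element, which is GAAA, any 2 bases, and GAAA again. The 2 motifs may overlap, and a match describes letters and no binding. Among 60 promoters of genes at least 16-fold higher, 35.0% held the response element and 18.3% the gamma-activated site. These promoters cover 49 of the 74 genes of that class, some with more than 1 promoter, and the remaining genes had none. The response element was in 23.5% of 132 promoters of genes 4-fold to 16-fold higher, in 9.24% of 184 promoters of genes 2-fold to 4-fold higher, in 2.31% of 12816 promoters of genes within 2-fold and in 2.98% of all 32851 promoters. For the gamma-activated site the shares were 9.09%, 11.4%, 5.94% and 7.02% in the same order. Promoters of the lower genes held the response element in 1.85% and the gamma-activated site in 9.26% of 162 cases. Genes of 1 family share upstream sequence, so these promoters are not independent.

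**Figure D2:**
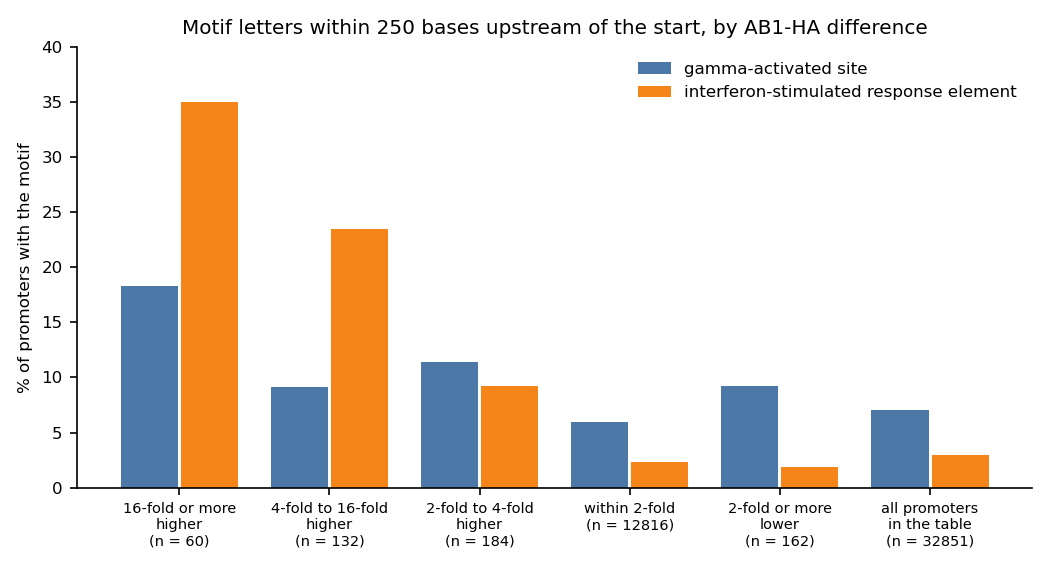
Percentage of promoters that hold the gamma-activated site (blue) or the interferon-stimulated response element (orange) within 250 bases upstream of the start, by the size of the AB1-HA difference, with the number of promoters under each class. The share with the response element falls from 35.0% for genes at least 16-fold higher to 2.31% for genes within 2-fold.

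A first set is shown because both motifs stand in it side by side, in the same order and spacing, upstream of 5 related GTPase genes. All are GRCm38.p6 sequences read 5′ to 3′ along the gene's strand, with the motif letters in capitals. They are Igtp at chr11:58199481-58199555 on the plus strand, Irgm2 at chr11:58214872-58214952 on the plus strand, Tgtp1 at chr11:48992284-48992364 on the minus strand, Tgtp2 at chr11:49064243-49064323 on the minus strand and Gm12185 at chr11:48927218-48927298 on the minus strand.
Igtp: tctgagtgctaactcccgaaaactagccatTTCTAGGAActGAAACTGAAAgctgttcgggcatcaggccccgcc
Irgm2: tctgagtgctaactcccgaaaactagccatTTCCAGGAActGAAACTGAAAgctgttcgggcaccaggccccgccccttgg
Tgtp1: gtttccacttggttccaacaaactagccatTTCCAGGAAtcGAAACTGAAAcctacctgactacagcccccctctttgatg
Tgtp2: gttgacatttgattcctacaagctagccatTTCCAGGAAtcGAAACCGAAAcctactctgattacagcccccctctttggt
Gm12185: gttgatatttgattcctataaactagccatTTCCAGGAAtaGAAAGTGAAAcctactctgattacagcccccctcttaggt
The joined pattern, a gamma-activated site followed after any 2 bases by a response element, looked for after these sequences had been seen, occurred in 5 of 32851 promoters, those of these 5 genes. Their differences were 8.55 for Igtp, 7.87 for Irgm2 (7.06 under normexp), 8.99 for Tgtp2, and bounds of 6.59 for Tgtp1 (2.85 under normexp) and 3.34 for Gm12185.

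A second set, picked with the values known, shows motifs upstream of genes with other roles: the transcription factor gene Irf1 at chr11:53769894-53769962 on the plus strand and the immunoproteasome gene Psmb8 at chr17:34198068-34198136 on the plus strand with a gamma-activated site, Gbp2 at chr3:142620574-142620643 on the plus strand and Cxcl10 at chr5:92349063-92349132 on the minus strand with a response element, and Socs1 at chr16:10785574-10785649 on the minus strand and Isg15 at chr4:156200845-156200926 on the minus strand with overlapping response elements that join into 1 longer run of capitals.
Irf1: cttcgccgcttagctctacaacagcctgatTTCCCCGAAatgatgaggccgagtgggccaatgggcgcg
Psmb8: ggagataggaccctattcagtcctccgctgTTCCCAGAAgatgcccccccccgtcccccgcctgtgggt
Gbp2: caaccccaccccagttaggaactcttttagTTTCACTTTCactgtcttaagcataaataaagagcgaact
Cxcl10: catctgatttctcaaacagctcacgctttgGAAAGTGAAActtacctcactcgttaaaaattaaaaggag
Socs1: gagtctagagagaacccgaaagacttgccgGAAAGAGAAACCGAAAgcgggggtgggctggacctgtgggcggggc
Isg15: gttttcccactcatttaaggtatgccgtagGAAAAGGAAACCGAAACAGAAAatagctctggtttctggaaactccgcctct
In Gbp2 the element reads on the opposite strand, as TTTCACTTTC, while in Cxcl10, Socs1 and Isg15 it reads GAAA first.

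Antigen processing for MHC class I showed exchange partners side by side. Psmb8, Psmb9 and Psmb10 encode the catalytic subunits that replace Psmb5, Psmb6 and Psmb7 in the immunoproteasome. Psmb9 had a scaled signal of 581 on the vehicle array and 39486 on the IFN-γ array (6.09), and its counterpart Psmb6 went from 68979 to 70584 (0.03). Psmb8 went from 1491 to 50975 (5.10) and Psmb5 from 159738 to 137046 (−0.22), and Psmb10 from 10187 to 154966 (3.93) and Psmb7 from 11659 to 11845 (0.02). In each pair the inducible subunit was higher and the constitutive subunit within 2-fold. Of 31 constitutive proteasome genes, 0 passed 2-fold in either direction, near the shares over all genes (2.98% higher and 1.17% lower). Their median was −0.05, and its sign turned under quantile and cyclic loess scaling. The activator subunits Psme1 (2.52) and Psme2 (2.16), which open the proteasome gate, were higher, and Psme3, of the nuclear activator, was at −0.05.

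The peptide transporter gene Tap1 had 185 on the vehicle array and 3449 on the IFN-γ array (4.22) and Tap2 went from 7816 to 46806 (2.58). Tapbp, which bridges the transporter to MHC class I, was higher by 3.89, its homologue Tapbpl by 4.28, and Erap1, which trims peptides in the endoplasmic reticulum, by 3.96 (1.83 under normexp). The general chaperones Calr, Canx and Pdia3 and the cytosolic peptidases Thop1 (−0.35) and Npepps (−0.15) were within 2-fold. The dedicated loading genes named here were each past 2-fold and the general ones were not. For the heavy chains and their partner, 13 of 17 were higher and 0 lower, with a median of 2.15. B2m, the light chain of every class I molecule, went from 48396 to 149489, H2-K1 from 23448 to 101976 (2.12) and H2-D1 from 13359 to 56828 (2.09). Among non-classical members, H2-T23, which presents leader peptides to NK receptors, went from 15418 to 87356 (2.502), H2-M3 was at 2.15, and Hfe, a regulator of iron uptake, went from 174 to 1544 (3.15). Mr1, which presents vitamin metabolites, was higher (1.32, but 0.64 under normexp), and Fcgrt, the neonatal Fc receptor, was at 0.14. H2 probes may read several H2 genes.

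MHC class II genes came from low levels, where normexp gives smaller differences. Cd74, the invariant chain, had a scaled signal of 9.54 on the vehicle array and 199 on the IFN-γ array (4.38, and 2.0 under normexp), and H2-Eb1 went from 10.2 to 128 (3.65, and 1.48 under normexp). H2-DMa, a chain of the peptide exchanger, went from 23.04 to 105 (2.18), but its difference was 0.74 under normexp. Bounds were found for H2-DMb1 (at least 42.7-fold), for the protease gene Ctss (at least 15.1-fold) and for H2-Ab1 (at least 3.83-fold). On the log2 scale their values under normexp were 2.22, 1.15 and 0.52. In all, 6 of 10 class II genes with a value were higher and 0 lower. The list median was 2.06, but −0.12 over the genes above background on both arrays, where fewer members remain. Ciita, the class II transactivator, H2-Aa, Cd40 and Cd86 were not well above background on either array.

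Checkpoint, chemokine and ligand genes followed gene by gene. Cd274, encoding PD-L1, had 19.7 on the vehicle array and 3829 on the IFN-γ array, or 194-fold (log2 7.60, and 5.07 under normexp), while Pdcd1lg2, encoding PD-L2, was lower by a bound of at least 2.11-fold (−0.58 under normexp). Cd47 (0.60), Cd276 (0.37), Pvr (0.06) and Nectin2 (0.11), which engage macrophages, T cells or NK cells, were within 2-fold. Of 19 genes with a value in the checkpoint list, 4 (21.1%) were higher and 1 (5.26%) was lower, beside 2.98% and 1.17% of all genes. The 4 were Cd274, Lgals9 (1.64) and, by bounds, the tryptophan enzyme genes Ido1 and Ido2. Cxcl10, a ligand of CXCR3, went from 1032 to 12658 (3.62), and Ccl2, which recruits monocytes, from 115 to 775 (2.76, and 2.12 under normexp). Ccl5, a T cell chemokine, had nearly the same signal on both arrays (829 to 814). Of 16 chemokines, 5 were higher and 1, Ppbp, was lower, but Ccl7, Ccl8 and Ppbp were within 2-fold under normexp. Among ligands of NK receptors, Clec2d, a ligand of an inhibitory receptor, went from 37.5 to 948 (4.66, and 3.48 under normexp), and Icam2, an adhesion ligand, from 28.9 to 285 (3.30, and 1.85 under normexp). H60b, a ligand of the activating receptor NKG2D, had 7395 on the vehicle array and 1725 on the IFN-γ array (−2.10), and Ulbp1, also an NKG2D ligand, was at −0.997. Raet1e, a further NKG2D ligand of the list, had nearly the same signal on both arrays (1782 to 1641, −0.12).

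**Figure D3:**
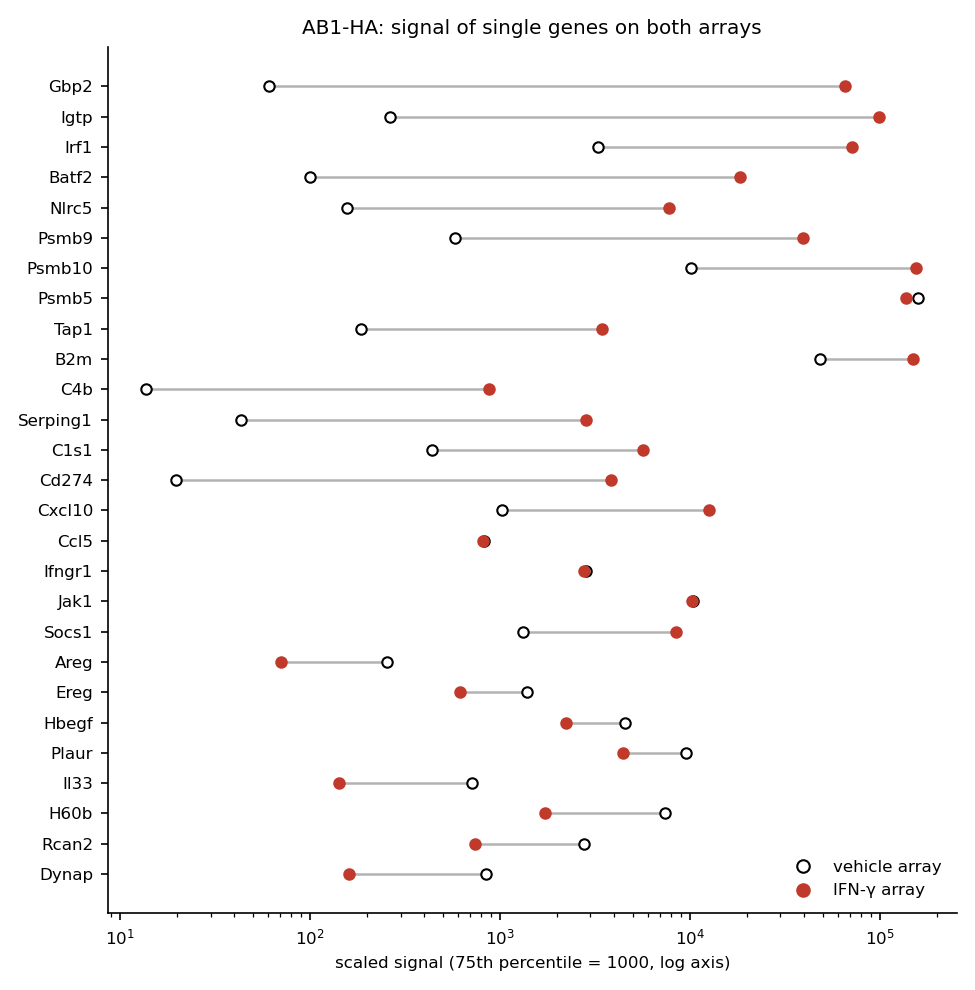
Scaled signal of 27 single genes on the vehicle array (open circles) and on the IFN-γ array (red circles) on a log axis, with a line joining the values of each gene. Gbp2, Igtp, Cd274 and Batf2 moved furthest, the circles of Ccl5, Ifngr1 and Jak1 nearly coincide, and Areg, Ereg, Hbegf, Plaur, Il33, H60b, Rcan2 and Dynap are lower with IFN-γ.

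Antiviral genes were higher across their families. Of 67 genes in the general list, 49 were higher and 0 lower, with a median of 2.16. Parp14, an ADP-ribosyltransferase, had 104 on the vehicle array and 10391 on the IFN-γ array (log2 5.91 under normexp), and Ly6a, the stem cell antigen Sca-1, went from 982 to 50753 (5.69). Rsad2, which makes a chain-terminating nucleotide (3.8), Bst2, which tethers virions (3.09), and Samhd1, which depletes deoxynucleotides (1.66), were higher. Eif2ak2, encoding the kinase PKR, was higher by 1.41, while Aim2, a sensor of cytosolic DNA, was at −0.25 and Apobec3 at 0.62. Of 11 genes in the OAS list, whose enzymes sense double-stranded RNA, 10 were higher (median 2.99, and 1.48 at the lowest over the alternatives), with Oasl2 at 4.93 and Oas3 at 4.84 (2.49 under normexp). For the IFIT and IFITM families 7 of 11 were higher, led by Ifit3 (185 to 6217), while Ifitm1 (−0.11) and Ifitm2 (0.08) were within 2-fold and Ifitm3 was higher (1.79). The OAS, IFIT, Phf11, Apol9 and Ifi200 genes share sequence, and their single values are uncertain.

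The ISG15 system was higher from its E1 to its E3 enzyme. Isg15, the ubiquitin-like modifier, had a scaled signal of 5014 on the vehicle array and 62910.1 on the IFN-γ array (3.65). Uba7, its activating enzyme, went from 289.6 to 8574 (4.89), Ube2l6, its conjugating enzyme, from 1201 to 17758 (3.89), and the ligase gene Herc6 was at 2.49. Uba6, which activates the modifier FAT10, was at 0.12, while FAT10 itself, encoded by Ubd, was higher by at least 93.5-fold (log2 3.17 under normexp). Of 9 genes in this list, 6 were higher and 0 lower. Schlafen genes were higher for 2 of 4, Slfn2 by at least 32.0-fold (log2 1.43 under normexp) and Slfn8 by 1.97. The list median was 1.2 and turned to −0.03 when no background filter was applied.

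Some sensors of microbes were higher, and their adaptors were not past 2-fold. Nod1, which detects bacterial peptidoglycan, had 53.1 on the vehicle array and 873 on the IFN-γ array (4.04, and 2.81 under normexp). Tlr3, a receptor of double-stranded RNA, went from 16.8 to 228 (3.76, and 1.43 under normexp), and Tlr6, a co-receptor of bacterial lipopeptides, from 68.4 to 754 (3.46, and 2.54 under normexp). Tlr2 was at 2.59, and 0.96 under normexp. The cytosolic RNA sensors Ddx58 (2.82), Ifih1 (3.22, with 0.95 by another probe and 2.59 under normexp) and Dhx58 (3.76, and 1.93 under normexp) were higher. The adaptor genes Mavs (−0.10), Ticam1 (0.09) and Myd88 (0.83) and the kinases Tbk1 (0.31) and Ikbke (−0.10) were within 2-fold. In all, 7 of 26 were higher and 0 lower.

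Complement genes were higher at the start of the classical pathway and at its inhibitor. C1s1, a protease of the first component, had 438 on the vehicle array and 5661 on the IFN-γ array (3.69), and C1ra, its partner, went from 1010.2 to 6480.3 (2.68). C2 went from 411 to 6235 (3.92) and C4b, cleaved by C1s, from 13.7 to 879.5 (5.999, and 3.52 under normexp). Serping1, the C1 inhibitor, had 43.5 on the vehicle array and 2827 on the IFN-γ array (6.02, and 4.80 under normexp). Cfb, of the alternative pathway, was higher by a bound of at least 8.65-fold (0.84 on the log2 scale under normexp). C3, on which the pathways converge, was at 0.22 by the probe used and at 2.24 by another. The recognition subunits C1qa and C1qc were not above background, and C1qb was at −0.06. Of 14 complement genes with a value, 6 were higher and 0 lower, with a median of 0.97 that became −0.03 without a background filter.

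Among cell death genes, the inflammatory caspases were higher. Casp1 went from 5384 to 27027 (2.33), Casp4, which senses cytosolic lipopolysaccharide, from 1708 to 6177 (1.86) and Casp12 from 14.99 to 109.6 (2.87, and 1.42 under normexp). Gsdmd, the pore-forming substrate of Casp1 and Casp4 proteins, was at 1.38. Casp8 (−0.24) and Casp9 (0.02), initiators of apoptosis, were within 2-fold. For necroptosis, the gene of the nucleic acid sensor ZBP1, Zbp1, went from 1375 to 39275 (4.84), and Mlkl, the membrane executioner, was at 1.42, with the kinase genes Ripk1 (0.38) and Ripk3 (0.05) within 2-fold. Fas, a death receptor, went from 85.4 to 501 (2.55, and 1.81 under normexp). Of 36 genes, 10 were higher and 0 lower, and Bcl2 (−0.34), Bcl2l1 (−0.22) and Mcl1 (−0.15), which block mitochondrial death, were within 2-fold.

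Cytokine and receptor genes gave 6 higher and 1 lower of 27. Il18bp, the decoy of IL-18, was higher by 4.35 (3.18 under normexp). Il15, which sustains NK and memory T cells, went from 91.8 to 520.1 (2.503), and Tnfsf13b, the B cell factor BAFF, was at 2.53 (1.16 under normexp). Receptor chain genes were higher as well, namely Osmr, of the oncostatin M receptor, from 19.9 to 238 (3.58, and 1.92 under normexp), and Il13ra1 (2.33, and 1.45 under normexp). Il6 was at 1.15 (0.55 under normexp). Il15ra was at 0.19 by the probe used and at a bound of 4.79 by another. Il33, an alarmin of stromal and epithelial cells, was lower, with 709.8 on the vehicle array and 143 on the IFN-γ array (−2.31). NF-κB genes gave 1 higher of 22 (4.5%, near the 2.98% of all genes), Nfkbiz, a nuclear cofactor (1.45, but 0.32 under normexp). The subunits Rela (−0.13), Nfkb1 (−0.05) and Relb (0.18) were within 2-fold.

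**Figure D4:**
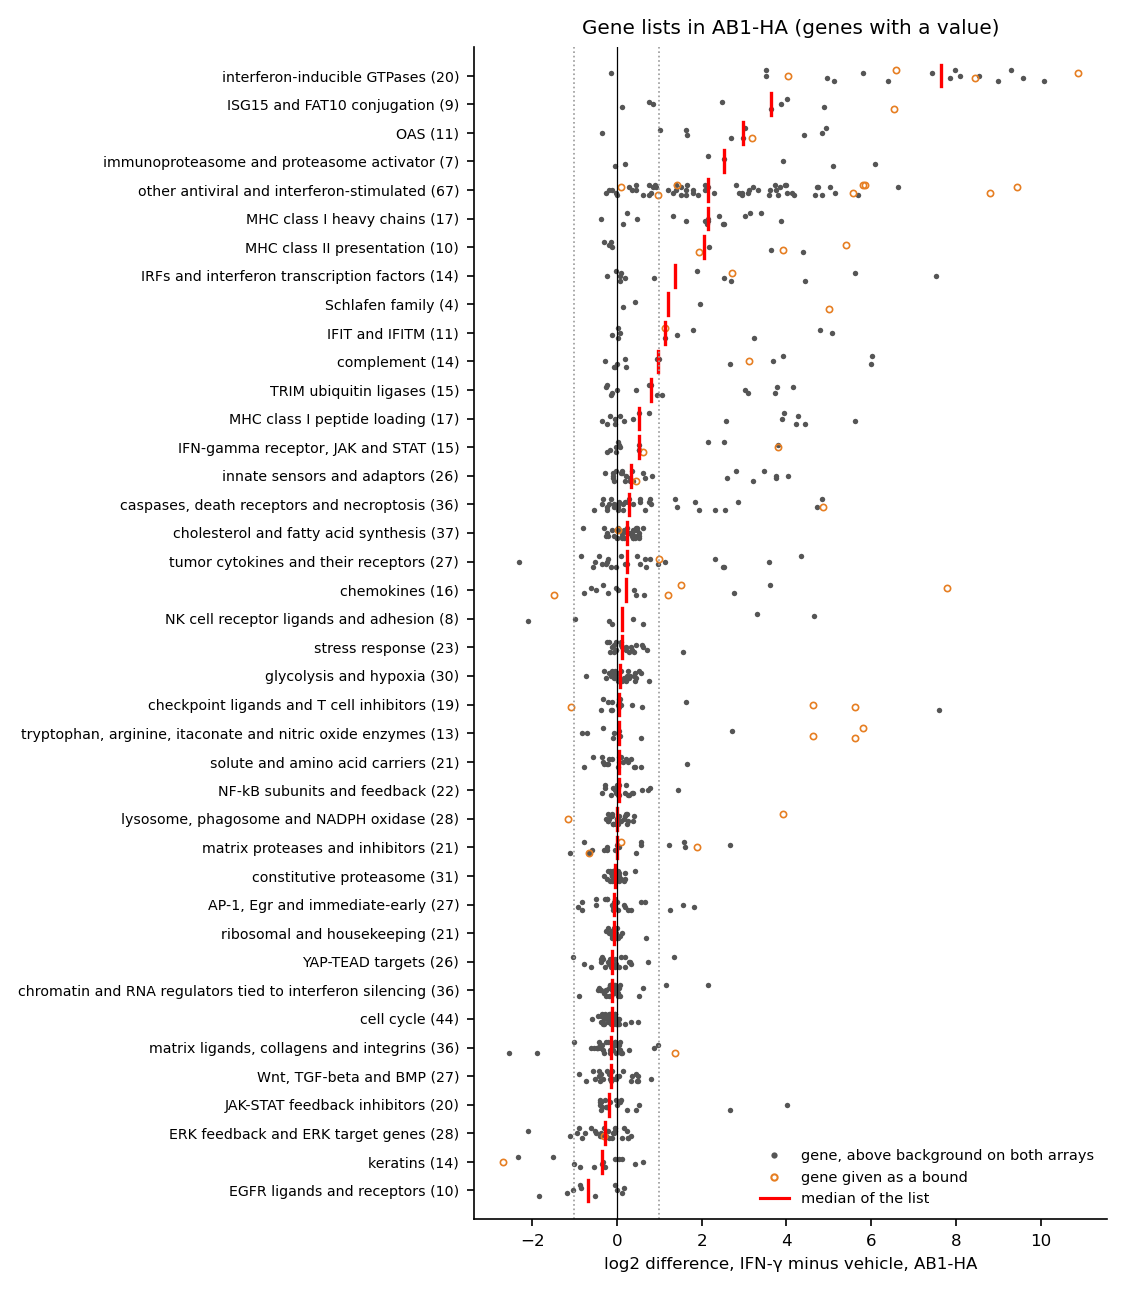
Log2 difference of each gene with a value, IFN-γ minus vehicle, for 40 lists ordered by their median, with the number of genes in parentheses, filled points for genes above background on both arrays, open orange points for bounds, red bars for medians and dotted lines at 2-fold. Interferon-inducible GTPases (median 7.66) stand at the top and EGFR ligands and receptors (−0.68) at the bottom.

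On the lower side, the calls leaned on dim probes. The brighter array was under a scaled signal of 100 for 69.5% of the 154 lower genes, for 112 of the 394 higher genes (28.4%) and for 3002 of all 13208 (22.7%). Under normexp, which compresses dim signals, 18 of the 154 lower and 258 of the 394 higher genes stayed past 2-fold, and 5 of the lower and 2 of the higher genes changed sign. The lower genes that normexp does not keep include Npnt (−2.54, and −0.48 under normexp), the most negative of those above background on both arrays, as well as Krt8, whose bound is lower still, Dusp5 and Krt18. The 18 that stay are described here, since they passed 2-fold under both background corrections. With cyclic loess scaling 3 of them, Plaur (−0.998), Ngef (−0.982) and Trib1 (−0.967), were just short of 2-fold.

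Ligands of the EGF receptor (EGFR) were among them. These growth factors are shed from the cell surface and feed the ERK pathway. Areg, encoding amphiregulin, had a scaled signal of 255 on the vehicle array and 70.8 on the IFN-γ array (−1.85). Ereg, encoding epiregulin, went from 1393 to 619 (−1.17), and Hbegf from 4576 to 2217 (−1.05, but −0.99 under normexp). Btc (−0.87) and Epgn (−0.52) also lay below 0 within 2-fold, and the receptor genes Egfr (0.11) and Erbb2 (0.01) differed by little. Of 10 ligands and receptors, 3 (30%) were lower, beside 1.17% of all genes, and 0 higher. The median was −0.68 (−0.26 at the nearest to 0 over the alternatives).

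Genes that ERK signalling controls also lay mostly below 0. Of 28, 2 (7.14%) were at least 2-fold lower, beside 1.17% of all genes, and 0 were higher. In all, 22 lay below 0, with a median of −0.28, beside −0.08 over all genes. Lists with other roles also lay mostly below 0, namely 37 of 44 cell cycle genes and 17 of 21 ribosomal and housekeeping genes. Plaur, the urokinase receptor, had 9548 on the vehicle array and 4471 on the IFN-γ array (−1.09). Dusp5, a nuclear ERK phosphatase, was dim (34.8 to 8.14, −2.09, and −0.66 under normexp). Spry4 (−0.75), Egr1 (−0.83), Fosl1 (−0.49) and Etv4 (−0.37) were below 0 within 2-fold, while the ERK phosphatase gene Dusp6 (0.17) was not. Trib1, a pseudokinase scaffold outside this list, went from 2742 to 1317 (−1.06). Klf2, a transcription factor of another list, was higher (521 to 1827, 1.81), as was Atf3, a stress-induced repressor (1.55).

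Other genes that stayed lower had varied roles. Dynap, a membrane protein gene, had 845 on the vehicle array and 159.7 on the IFN-γ array (−2.40). Rcan2, a calcineurin inhibitor, went from 2768 to 743 (−1.90), and Trem1, an activating receptor better known from myeloid cells, from 1085 to 328 (−1.73). Kank3, an adaptor of the cytoskeleton, had 2791 on the vehicle array and 952 on the IFN-γ array (−1.55). Chst1, a sulfotransferase of keratan sulfate, went from 4082 to 1491 (−1.45) and Csgalnact1, which starts chondroitin chains, from 733 to 308 (−1.25). Cyp19a1, the aromatase that makes estrogens, went from 484 to 181 (−1.42). Pthlh, the parathyroid hormone-related peptide, had 1356 on the vehicle array and 610.4 on the IFN-γ array (−1.15). Pcolce2, an enhancer of collagen processing (−1.42), the adenylyl cyclase gene Adcy8 (−1.65), the ubiquitin ligase gene Rnf183 (−1.84, and −1.24 under normexp) and the exchange factor gene Ngef (−1.08) complete the set, of which Cyp19a1 was named after its value was seen.

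Adhesion and matrix genes differed by single members. Of 14 keratins 4 (28.6%) were lower, beside 1.17% of all genes: Krt8 by at least 6.49-fold, Krt18 (−1.52), Krt12 (−2.33) and Krt20 (−1.004). Under normexp these 4 were at −0.70, −0.81, −0.39 and −0.99, short of 2-fold. Col18a1, a basement membrane collagen (−1.02, and −0.95 under normexp) was the lower one among the collagens, and Itgav (−0.25), Itgb1 (−0.15) and Fn1 (0.08) were within 2-fold. Secreted proteases of the matrix were higher for Adamts1 (1217 to 3724, 1.61), Adamts4 (1.23) and Adamts5 (1.58, with 0.55 by another probe and 0.30 under normexp). Serpinb9, the intracellular inhibitor of granzyme B, went from 58.0 to 371 (2.67, and 1.54 under normexp). F3, tissue factor, the initiator of coagulation, was at 1.35. Of 27 Wnt, TGF-β and BMP genes, 0 passed 2-fold, near the shares over all genes (2.98% higher and 1.17% lower), with Tgfb1 at −0.38.

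Growth and metabolic genes stayed within 2-fold as groups. Few genes passed that limit at all (2.98% higher and 1.17% lower of all genes), so a count of 0 is near the overall share. Of 44 cell cycle genes 0 passed 2-fold, and 37 lay below 0 with a median of −0.11, against −0.08 over all genes. Mki67, a proliferation marker, was at −0.01, the kinase inhibitor gene Cdkn1a at −0.04 and the cyclin gene Ccnd1 at −0.38. Of 37 cholesterol and fatty acid synthesis genes 0 passed 2-fold and 30 lay above 0, with a median of 0.24. Abca1, which exports cholesterol, lay lowest of them at −0.79. In tryptophan metabolism Wars, the tryptophanyl-tRNA synthetase, went from 18537 to 122594 (2.73), and Ido1 was higher by at least 49.5-fold (log2 2.24 under normexp). Nos2, the inducible nitric oxide synthase, was at 0.04 and Ass1, which supplies its arginine, at −0.82. Slc2a6, a sugar carrier of lysosomes, was the higher one of 21 carriers (4.76%, beside 2.98% of all genes). It went from 776 to 2431 (1.65), while Slc7a11, the cystine carrier, was at 0.41.

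LLC arrays give the same differences in a line of another tissue and strain, which cannot be told apart here. Over 11985 genes above background on all 4 arrays, 259 were at least 2-fold higher in AB1-HA (2.16%) and 323 in LLC (2.70%), and 172 were higher in both, or 66.4% of the AB1-HA and 53.3% of the LLC set. The lower genes numbered 68 in each line (0.567%), and 3 were lower in both, or 4.41% of each set. Lower calls in AB1-HA leaned on dim probes, which limits this count, and the overlap was not tested. Areg (−1.85 in AB1-HA, 0.05 in LLC), Ereg (−1.17, 0.32), Hbegf (−1.05, 0.81) and Plaur (−1.09, 0.16) were at least 2-fold lower in AB1-HA and within 2-fold in LLC. Kank3 (−1.55, −1.02) and Npnt (−2.54, −1.12) were among the 3 lower in both, and Npnt was at −0.48 in AB1-HA under normexp. Egr1 had −0.83 in AB1-HA and 1.11 in LLC, and Klf2 1.81 and −0.05. Genes with larger values in AB1-HA were Hfe (3.15, 0.40), Icam2 (3.30, 0.99), Tlr3 (3.76, 1.65) and Wars (2.73, 0.85). Genes with larger differences in LLC were Batf2 (7.53, 11.53), Tgtp2 (8.99, 11.61), Ifi47 (4.97, 9.19), Cxcl10 (3.62, 8.50) and Ccl5 (−0.03, 7.17). A larger difference is not a higher level. Vehicle signals of Ifi47, Tgtp2 and Batf2 were 70.9, 31.3 and 11.4 in LLC, beside 2377, 301 and 99.8 in AB1-HA. With IFN-γ, Ifi47 and Tgtp2 were higher in AB1-HA (74588 and 153627, beside 41521 and 97593 in LLC). Batf2 was higher in LLC (33813, beside 18483 in AB1-HA). With 1 array a group, none of these differences between the lines was tested.

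**Figure D5:**
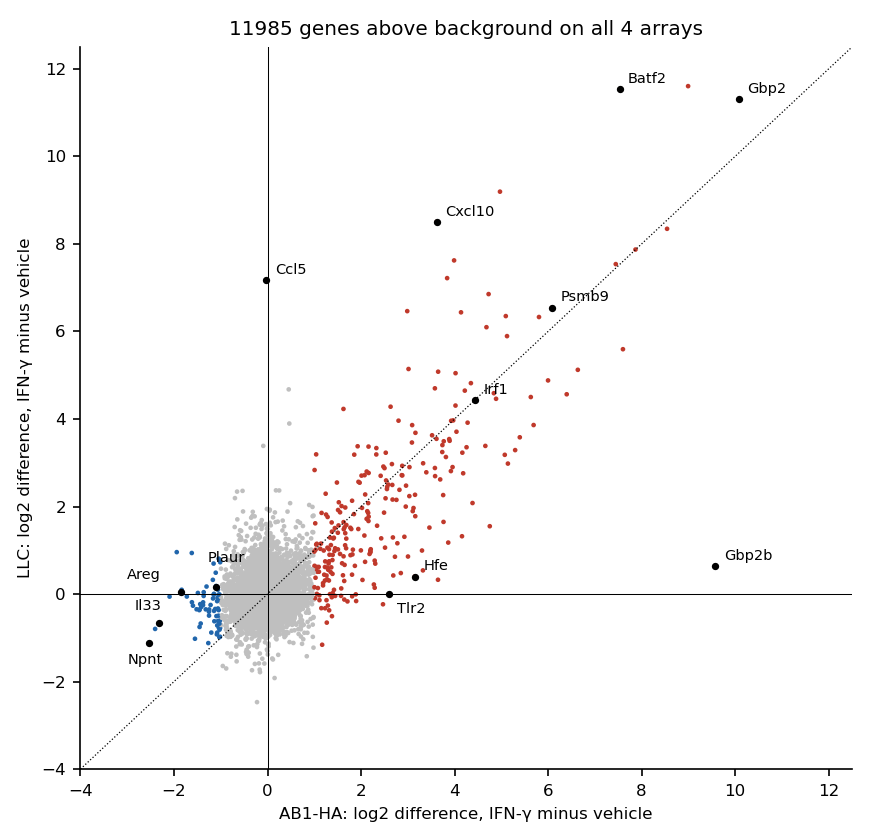
Log2 difference, IFN-γ minus vehicle, in AB1-HA (horizontal) and LLC (vertical) for the 11985 genes above background on all 4 arrays, coloured by the AB1-HA difference (red at least 2-fold higher, blue at least 2-fold lower, grey within 2-fold), with a dotted line at equal values. Irf1 and Psmb9 lie near the line, Ccl5 and Cxcl10 on the LLC side, and Gbp2b, Hfe and Tlr2 on the AB1-HA side. The blue points spread around 0 in LLC.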

How the data were processed

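RNA of AB1-HA cells was labelled with Cy3, per the labels' protocols, and hybridised to 1-colour Agilent whole mouse genome arrays, all 4 on 1 slide. The deposited files hold spot intensity values from Agilent Feature Extraction 10.7, per the submitters' processing notes, with the background subtracted per the file headers and no normalization between arrays. The authors also deposited a table of log2 values; set against the scanner intensities, its columns had a correlation of 0.999 with log2 signals scaled to the 75th percentile and centred per probe, and medians of 0.11 (vehicle) and −0.08 (IFN-γ) for AB1-HA. It was used as an alternative.

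From the deposited intensity values, control spots and outlier spots (201 with vehicle, 180 with IFN-γ) were left out, spots of a probe averaged, and log2 values set against the 75th percentile of gene probes on that array (1380 and 1419). On the vehicle array 57.5% and on the IFN-γ array 58.2% of probes were well above background, and 0 spots were saturated. Accessions were matched to a RefSeq table (GRCm38.p6, names and gene order only), which named 26581 of 39429 probes for 20144 genes. A gene's value is that of its probe of highest mean signal on all 4 arrays: of the higher genes, 86 have several measured probes, all past 2-fold in 73 and of opposite sign in 2, and of the lower genes 13, 7 and 1. A gene not well above background on 1 array has a bound against the higher of its signal there and the lowest signal well above background (8.26 and 7.53 intensity units). Both arrays dim means no value (6936 genes, with bounds under 1-fold).

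The members and the 45 lists were chosen with earlier results of these data known. Genes named are the 30 largest differences in each direction, the 15 brightest bounds, the 20 brightest calls, members of the lists, and genes apart in opposite directions in the lines. Other names (members within 2-fold, genes of neighbour runs and those with the joined motif) were picked after their values were seen. Some list members are counted but not reported by name here. Normexp had offset 50 on median spot signals. The alternatives were other scalings (array median, quantile, cyclic loess), normexp, the authors' log2 table, other background filters, other rules for probes, and outlier spots kept. The software was R 4.3.3 (limma 3.58.1) and Python 3.11.15 (matplotlib 3.10.9, pandas 2.3.3, numpy 2.4.6).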

Additional observations from a re-analysis of the deposited data

Results flagged for a closer look

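In 4 genes the difference was at least 2-fold in AB1-HA and at least 2-fold the other way in LLC. Il17c, an epithelial cytokine gene, was at −1.22 in AB1-HA and 1.08 in LLC, and Tnfrsf13c, the BAFF receptor gene, at −1.38 and 1.80, all as bounds. Mlph, a melanosome transport gene, was at 1.17 and −1.16, and Pcp4l1 at 1.12 (a bound) and −1.16. The difference between the lines was not tested, all 4 genes were dim in AB1-HA, and under normexp the AB1-HA values were −0.88, −0.29, 0.26 and 0.63.

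Probes that matched no gene name also carried signal: 5974 had a value, of which 165 passed 2-fold toward higher signal with IFN-γ and 71 toward lower signal, and they are in no gene count.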

How the results depend on the processing

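No paired analysis was possible because each group holds 1 array, and for the same reason no replicate could be left out. Against 394 higher and 154 lower genes, normexp gave 260 and 20, cyclic loess 447 and 102, and no background filter 722 and 588. The median over all genes was −0.08, and 0.02 under cyclic loess and −0.16 without a filter. The share of higher genes among the calls was 71.9%, and 92.9%, 81.4% and 55.1% under these 3 alternatives. Under the other alternatives the counts lay between 314 and 485 higher and between 115 and 224 lower. Of 262 named genes followed under 10 alternatives (9 for bounds, which have no value where both arrays must be above background), 189 stayed past 2-fold under all that give them a value, 73 did not under at least 1, and 0 changed sign. For 17 of 45 lists the median changed sign somewhere. The MHC class II median turned to −0.118 over genes above background on both arrays and to −0.118 without a filter, and the Schlafen median to −0.025 without a filter, where dim genes enter or bounds leave. Signal over background limits the lower calls, of which 18 of 154 were kept under normexp.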
